A study of Mus musculus with 6 samples.

Results

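The replication-dependent histone genes were taken as the protein-coding genes whose GENCODE M21 symbol begins with Hist1h, Hist2h, Hist3h or Hist4h. The rule found 67 genes among the 55401 listed, and no measured value entered it. They comprised 6 H1, 18 H2A, 18 H2B, 12 H3 and 13 H4 genes. Another 3 genes with such symbols were non-coding in the annotation and were left out. On the GRCm38 build, 54 members lay in the Hist1 cluster (chr13:21715763-23934851), 10 in Hist2 (chr3:96219865-96270132), 2 in Hist3 (chr11:58948920-58956830) and 1 was Hist4h4 (chr6:136801553-136804415).

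The genes code for the bulk of the histones that package newly copied DNA. H2A, H2B, H3 and H4 form the nucleosome core and H1 is the linker histone. Most of their messenger RNAs end in a conserved stem-loop instead of a poly(A) tail, and this end is cut by a dedicated machinery that includes the stem-loop binding protein SLBP and the U7 small nuclear RNA. The genes are transcribed mainly in S phase from clusters in which NPAT, CASP8AP2 and other factors gather. Libraries made from poly(A) RNA catch only the part of these transcripts that carries a tail, so the levels below are those of the caught part.

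The study asked how RBBP4 and RBBP7, related histone-binding WD-repeat proteins of several chromatin complexes, act in mouse embryonic stem cells (mESCs). All cells were of the 46C line, grown with LIF, CHIR99021, PD0325901 and serum. By the labels, the control line carried the biotin tag alone, the Rbbp4-overexpressing line (Rbbp4 OE) biotin-Rbbp4 and the Rbbp7-overexpressing line (Rbbp7 OE) biotin-Rbbp7, each expressed stably. The methods of the study describe biotin-tag lines made by lentivirus in cells with the biotin ligase BirA-V5 (blasticidin), which then received a FLAG-Avitag, alone or on Rbbp4 or Rbbp7, and were kept as an infected population (puromycin). They do not state that the RNA libraries came from those lines. Each of the 3 groups had 2 libraries. Nothing in the labels said whether the 2 libraries of a line came from separate infections or cultures, so the p-values measure only the spread between these libraries.

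The values were TPM, a length-scaled share of all transcripts, and the sequencing depth is unknown because TPM keeps none. Rbbp4 had 269.97 and 271.20 TPM in Rbbp4 OE against 146.02 and 147.00 TPM in the control, a log2 fold change of 0.88 ± 0.05 (SE; adjusted p = 0.00173, limma). Rbbp7 had 724.74 and 748.06 TPM in Rbbp7 OE against 238.55 and 237.14 TPM in the control, a log2 fold change of 1.63 ± 0.05 (SE; adjusted p = 2.27e-04, limma). The 10 mESC markers stood at 76.8 TPM or more in every library. Of 16 markers of other cells, 6 had a mean under 0.5 TPM. Their sum was 334 to 345 TPM in the control, 436 to 446 TPM in Rbbp4 OE and 381 to 615 TPM in Rbbp7 OE, most of it Vim. Without Vim it was 37.8 to 40.2 TPM in the control, 47.6 to 59.2 TPM in Rbbp4 OE and 56.6 to 59.1 TPM in Rbbp7 OE. None of the 16 was at 0 in every library, and the part of these markers in the histone values was not tested.

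The stem-loop is shown first because it decides whether such a transcript normally has a tail. A perfect stem of 6 base pairs with a loop of 4 bases was found in the annotated transcripts of 44 of the 67 members. The sequences below are written as DNA from the GENCODE M21 transcripts, with the stem and loop in capitals and up to 5 bases on each side in lower case.
Hist1h2ap: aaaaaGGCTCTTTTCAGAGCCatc
Hist1h2bk: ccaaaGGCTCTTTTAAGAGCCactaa
Hist2h2ac: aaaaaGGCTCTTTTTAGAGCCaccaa
Hist1h4n: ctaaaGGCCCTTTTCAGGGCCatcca
Hist1h4i: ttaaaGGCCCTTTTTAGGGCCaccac
Hist1h4b: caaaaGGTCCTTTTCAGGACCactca

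The form of Hist1h2ap was shared by 26 members of the H1, H2A, H2B and H3 classes. The form of Hist1h2bk was found in 6 members and that of Hist2h2ac in that gene only. Every stem of an H4 gene differed from these in its bases. The form of Hist1h4n was found in 7 H4 genes, that of Hist1h4i in 2 and that of Hist1h4b in 2.

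The annotation places the end of a histone transcript in different ways. In 20 members it lay within 100 nt after the stem-loop (stem-loop end). In 28 it lay further on or had a polyadenylation signal (AATAAA or its variant ATTAAA) within its last 50 nt (extended end). In the other 19 neither a stem-loop nor such a signal was found. The poly(A) signals of some members with an extended end are printed because they show a route to a tailed transcript, with the signal in capitals.
Hist1h1c: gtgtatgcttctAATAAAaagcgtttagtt
Hist1h2ae: cccagcttctccAATAAAtgggtcaatttt
Hist1h4i: ggttctgtttacATTAAAagtattctatgc
Hist3h2a: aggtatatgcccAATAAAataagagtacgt
Hist3h2ba: cataatggtattAATAAAtttggttcaatt

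Together the 67 genes made up a small part of every library. Their summed TPM was 135.78 and 113.64 in the control, 132.64 and 140.82 with Rbbp4 OE and 133.48 and 107.07 with Rbbp7 OE, which is 0.0107 to 0.0141% of the total. The 3 groups overlapped. In bulk RNA, fewer cells in S phase and less RNA per cell cannot be told apart in these sums. The 11 replacement histone genes are made outside S phase as well, and their messages mostly end in a poly(A) tail, although H2afx is known to make a stem-loop form too. They summed to 4344 to 4743 TPM. H2afz, which codes for H2A.Z, alone had 1744 to 2268 TPM. Most messages of the Hist genes lack a tail, so the ratio of the 2 sums is not that of their RNA in the cell.

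The level was spread unevenly over the members. In all, 6 had a mean of at least 5 TPM and held 40.5% of the sum. These were Hist1h2bc, Hist1h2bk, Hist1h2ap, Hist1h2an, Hist1h2ah and Hist1h4i. The Hist1 cluster held 90.7% of the sum, Hist2 6.80%, Hist3 2.40% and Hist4h4 0.0943%. At the other end, 6 members were listed at 0 in all 6 libraries: Hist1h1t, Hist1h2aa, Hist1h2ao, Hist1h2ba, Hist1h2bn and Hist2h2ab. Hist1h1t, Hist1h2aa and Hist1h2ba are the histone genes known for expression in male germ cells. Another 22 were above 0 but had a mean under 0.5 TPM, which left 39 members for testing.

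The annotated end and the length of a transcript enter a TPM value, because it is divided by length. The 28 members with an extended end had a median level of 0.423 TPM, and 11 of them reached a mean of 0.5 TPM. The median was 1.54 TPM for the 20 members with a stem-loop end and 1.81 TPM for the 19 with neither feature, and 14 of each passed. Their median lengths were 1255, 483.5 and 399 nt. The 36 members of up to 600 nt held 64.1% of the summed TPM and the 31 longer ones 35.9%. Levels of single genes are therefore compared below only within the per-length scale of TPM and mainly between libraries of the same gene.

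**Figure D1:**
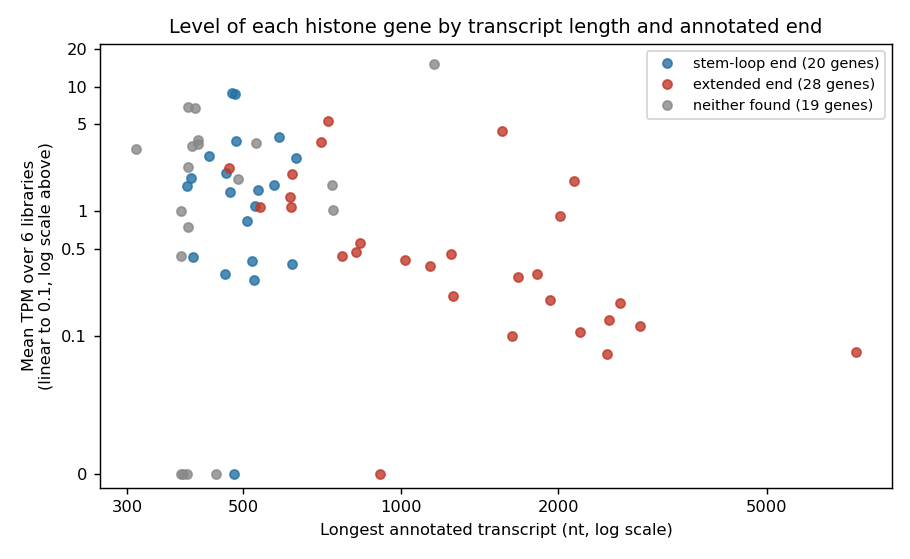
Mean TPM over the 6 libraries against the length of the longest annotated transcript in nt (log scale), with 1 point for each of the 67 histone genes, coloured by annotated end. Levels fall off to the right among the genes with an extended end. Hist1h2bc, at 15.1 TPM and 1156 nt, stands highest of all members and is one of those with neither feature found.

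Only 5 members had more than 1 exon, and all were H2B genes. The highest of all members, Hist1h2bc, was one of them, with 2 annotated exons between chr13:23684199 and 23692908. It had 15.58 and 10.85 TPM in the control, 17.50 and 16.13 TPM with Rbbp4 OE and 15.37 and 15.22 TPM with Rbbp7 OE. Control replicate 2 was the lowest library and the other 5 lay close together, with both Rbbp4 OE libraries above all others.

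Linker histone H1 was the smallest class at 5.75% of the sum. Of its 6 genes, Hist1h1c, an H1 of many somatic tissues with a known polyadenylated form, was the highest at 5.08 and 4.31 TPM in the control libraries, 3.65 and 3.96 TPM in those of Rbbp4 OE and 5.25 and 4.13 TPM in those of Rbbp7 OE. Both Rbbp4 OE libraries lay below the other 4. Hist1h1b had 1.53 and 1.75 TPM in the control, 1.04 and 0.76 TPM with Rbbp4 OE and 0.69 and 0.36 TPM with Rbbp7 OE. The order from control to Rbbp4 OE to Rbbp7 OE held for every library of Hist1h1b.

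Hist1h1a ranged from 0.72 TPM in Rbbp7 OE replicate 2 to 3.05 TPM in Rbbp4 OE replicate 2, and only its Rbbp7 OE libraries (1.22 and 0.72 TPM) lay below both controls (1.54 and 2.10 TPM). Hist1h1e and Hist1h1d stayed at or under 0.33 and 0.11 TPM, and the germ-cell gene Hist1h1t was listed at 0. The H1 sum was 8.29 and 8.52 TPM in the control libraries, 5.91 and 8.20 TPM in those of Rbbp4 OE and 7.36 and 5.61 TPM in those of Rbbp7 OE. Both overexpression lines lay below the control, with log2 differences of the group means of -0.25 and -0.37. Of all single genes tested, 37.1% lay below both controls in Rbbp4 OE and 23.4% in Rbbp7 OE. Rbbp4 OE replicate 2 almost reached the control, and without Rbbp4 OE replicate 1 the log2 difference was -0.04. Without Hist1h1c, the log2 difference of the H1 sum was -1.05 in Rbbp7 OE.

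H2A was the largest class, at 36.2% of the sum. Its 18 genes summed to 52.68 and 46.85 TPM in the control, 51.17 and 47.90 TPM with Rbbp4 OE and 37.43 and 40.41 TPM with Rbbp7 OE. The means were 49.8 ± 4.12, 49.5 ± 2.31 and 38.9 ± 2.11 TPM (SD, n = 2 each). Both Rbbp7 OE libraries lay below the other 4, at 0.782 of the control level and with a log2 difference of -0.35. In 23.4% of all single genes tested, both Rbbp7 OE libraries lay below both controls. The class sums were not tested. Rbbp4 OE overlapped the control, with a log2 difference of -0.01.

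H2B held 27.4% of the sum. Its 18 genes summed to 35.12 and 27.38 TPM in the control libraries, 37.15 and 39.37 TPM in those of Rbbp4 OE and 38.75 and 31.47 TPM in those of Rbbp7 OE. Rbbp4 OE lay above the control, with a log2 difference of 0.29 that ranged from 0.12 to 0.48 when a library was left out, the extremes being those without control replicate 2 and without control replicate 1. Of all single genes tested, 20.8% had both Rbbp4 OE libraries above both controls. The H2B sum of Rbbp7 OE overlapped that of the control. After Hist1h2bc and Hist1h2bk the highest H2B gene was Hist1h2bj, with 2.59 and 2.23 TPM in the control, 1.74 and 1.50 TPM with Rbbp4 OE and 3.05 and 0.93 TPM with Rbbp7 OE. Its Rbbp4 OE libraries lay below both controls, by a log2 fold change of -0.38 ± 0.35 that did not pass (SE; adjusted p = 0.523, limma).

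H3 and H4 held 15.0% and 15.7% of the sum and overlapped between all groups. The 12 H3 genes summed to 20.51 and 14.98 TPM in the control, 20.59 and 17.91 TPM with Rbbp4 OE and 22.31 and 17.98 TPM with Rbbp7 OE. The 13 H4 genes summed to 19.18 and 15.91 TPM in the control libraries, 17.82 and 27.44 TPM in those of Rbbp4 OE and 27.63 and 11.60 TPM in those of Rbbp7 OE. The H4 sum was highest in Rbbp7 OE replicate 1 and lowest in Rbbp7 OE replicate 2, so that its log2 difference from the control was -0.60 without the first and 0.66 without the second.

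**Figure D2:**
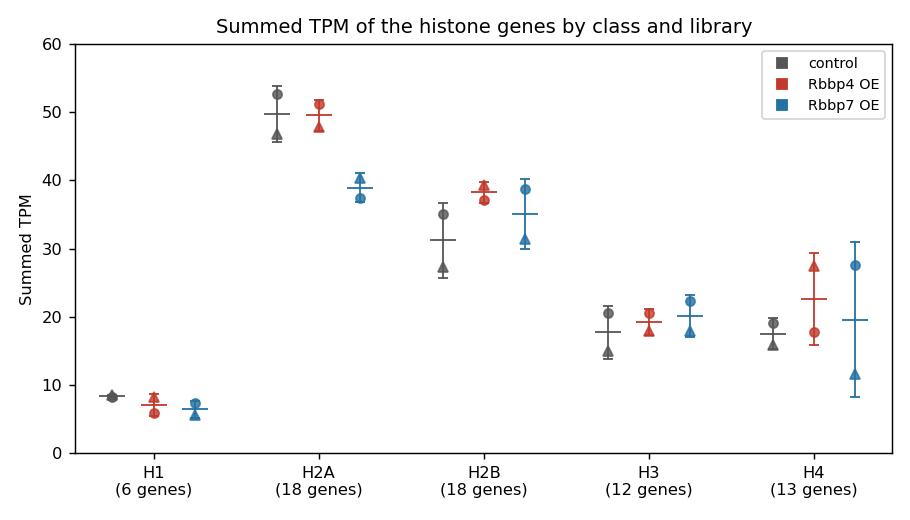
Summed TPM of the histone genes of each class, with 1 marker per library (circles for replicate 1, triangles for replicate 2), a bar at the mean of each group and error bars of 1 SD (n = 2). The Rbbp7 OE libraries lie below the other 4 for H2A, at 37.4 and 40.4 TPM, while the H4 sums of Rbbp7 OE span 11.6 to 27.6 TPM.

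Single histone genes varied more between replicates than other genes in their range of mean TPM. The median difference between the 2 replicates of a group, on the scale of log2(TPM + 1), was 0.48 over the 39 tested members in the control, 0.53 in Rbbp4 OE and 0.61 in Rbbp7 OE. It was 0.18, 0.12 and 0.12 over all 14156 genes tested. Over the 6448 other protein-coding genes in the same range of mean TPM it was 0.22, 0.16 and 0.17. They were not matched to the members by transcript length or by level within the range. The part of length in the larger spread was not tested. Genes that had at least 1 TPM in 1 library of a group but were listed at 0 in its replicate made up 17.9%, 5.13% and 12.8% of the members in the 3 groups, against 0.186%, 0.729% and 0.527% of those other genes.

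**Figure D3:**
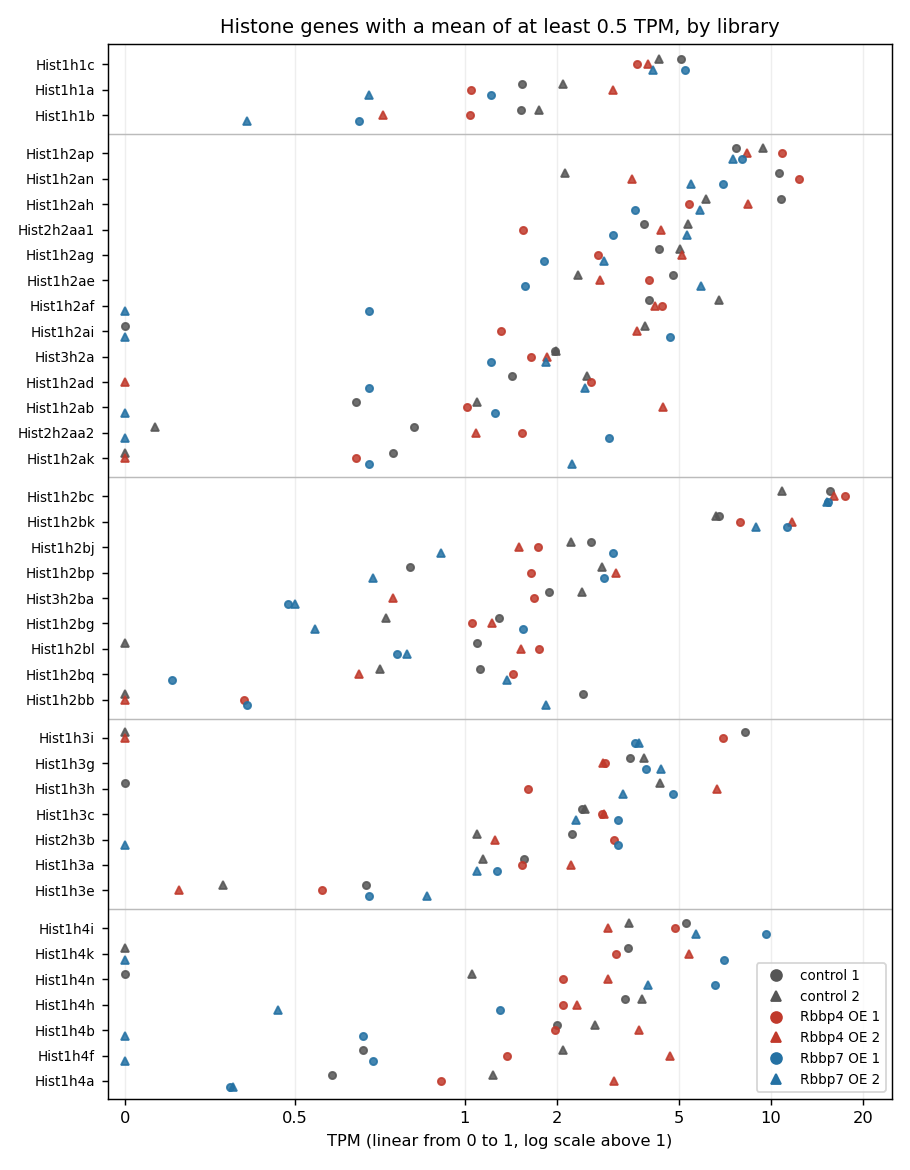
TPM of the 39 histone genes with a mean of at least 0.5 TPM, by library (axis linear from 0 to 1 and logarithmic above 1), with grey for the control, red for Rbbp4 OE and blue for Rbbp7 OE, and circles and triangles for replicates 1 and 2. Genes such as Hist1h3i and Hist1h2ai are listed at 0 in some libraries and at several TPM in the replicate of the same group, while Hist1h2bc and Hist1h3g have narrow ranges.

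Many members are near-copies of each other, so that reads may be split between them by the authors' estimation. By transcript sequence, 28 members had at least 1 other gene that matched at 95% identity or more over at least 80% of their longest transcript. Linked through such matches, 49 members fell into 5 groups. Hist2h2aa1 and Hist2h2aa2 have no difference over 528 aligned bases, the whole transcript of Hist2h2aa2. Both also match Gm20634, a gene outside the members, without a difference. Hist1h2ao and Hist1h2ap have no difference over 452 aligned bases. Hist1h2ao was listed at 0 in every library, and Hist1h2ap had 7.73 and 9.46 TPM in the control, 10.85 and 8.36 TPM with Rbbp4 OE and 8.03 and 7.51 TPM with Rbbp7 OE. How the reads of this pair divide between the genes cannot be read from TPM, so the value of Hist1h2ap is that of either gene or both.

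Hist1h3h and Hist1h3i, which code for H3, differ at 4 of 411 bases. A stretch of 60 bases that holds 1 of the differences is printed, with the differing base in capitals, to show how alike reads from the pair are.
Hist1h3h: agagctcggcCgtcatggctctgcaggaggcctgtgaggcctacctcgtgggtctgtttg
Hist1h3i: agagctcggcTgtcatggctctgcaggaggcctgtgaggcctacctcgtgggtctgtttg

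Hist1h3h had 0 and 4.35 TPM in the control libraries, 1.61 and 6.69 TPM in those of Rbbp4 OE and 4.81 and 3.30 TPM in those of Rbbp7 OE. Hist1h3i had 8.24 and 0 TPM, 6.96 and 0 TPM, and 3.61 and 3.72 TPM in the same order. In the control, each gene was listed at 0 in the library in which the other was high. Added together the pair had 8.24 and 4.35 TPM, 8.57 and 6.69 TPM, and 8.42 and 7.02 TPM, with overlapping groups.

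Hist1h4m and Hist1h4n, which code for H4, differ at 1 of 402 bases. The stretch around it begins just before the start codon.
Hist1h4m: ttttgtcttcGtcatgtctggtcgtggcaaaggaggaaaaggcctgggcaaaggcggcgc
Hist1h4n: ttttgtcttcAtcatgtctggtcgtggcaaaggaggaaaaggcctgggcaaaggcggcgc

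Hist1h4n had 0 and 1.06 TPM in the control, 2.10 and 2.95 TPM with Rbbp4 OE and 6.58 and 3.98 TPM with Rbbp7 OE. Hist1h4m had 2.58 TPM in control replicate 1, the library in which Hist1h4n was listed at 0, and was listed at 0 in the other 5. Added together the pair had 2.58 and 1.06 TPM in the control, so that the sum of the control overlapped that of Rbbp4 OE but stayed below that of Rbbp7 OE.

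Among the H2A members, the difference in the sum lay in a group of 12 near-identical Hist1 genes. They summed to 45.35 and 39.40 TPM in the control libraries, 45.43 and 40.57 TPM in those of Rbbp4 OE and 30.19 and 32.50 TPM in those of Rbbp7 OE. Rbbp7 OE was at 0.740 of the control level, a log2 difference of -0.43, and its libraries lay below the other 4. Hist1h2aj, a gene outside the members and these sums, matched Hist1h2af at 99.1% and Hist1h2ai at 99.7%. Reads may be shared with it, and its part in the difference was not tested. The other 6 H2A genes summed to 7.33 and 7.45 TPM in the control, 5.74 and 7.33 TPM with Rbbp4 OE and 7.24 and 7.91 TPM with Rbbp7 OE, with a log2 difference of 0.04 between Rbbp7 OE and control. Between replicates, the median difference of a single gene of the group of 12 was 0.60 and that of its sum was 0.16. For the groups of near-identical H3 and H4 genes the sum varied as much as the single genes did, with 0.30 and 0.30 for H3 and 0.62 and 0.64 for H4.

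**Figure D4:**
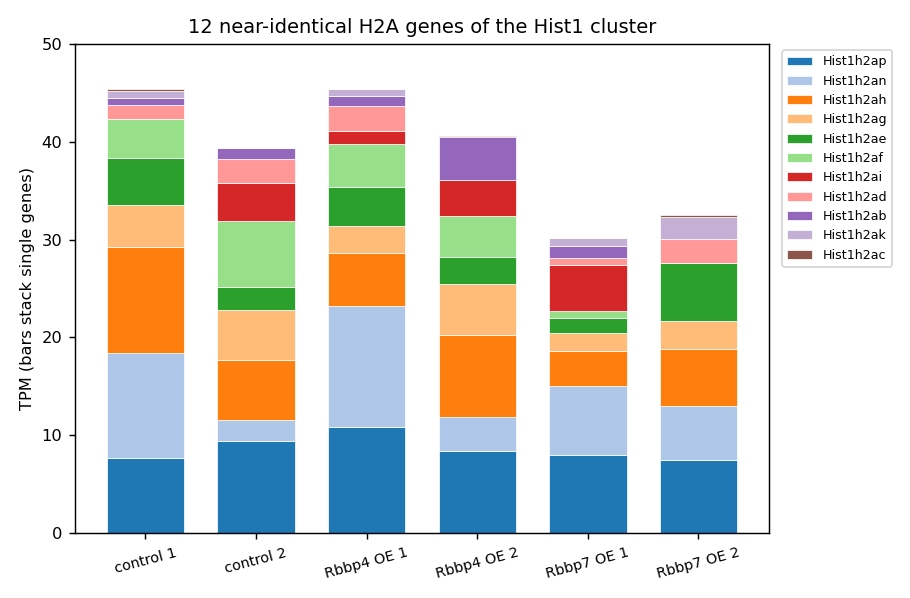
TPM of the near-identical H2A genes of the Hist1 cluster, stacked to their sum for each of the 6 libraries (Hist1h2ao, at 0 in all of them, adds nothing). The Rbbp7 OE columns end at 30.2 and 32.5 TPM and the other 4 at 39.4 to 45.4 TPM, while the single colours change in size between replicates.

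The largest single change in that group was Hist1h2af (chr13:23533906-23534304, plus strand). It had 4.01 and 6.77 TPM in the control libraries, 4.41 and 4.18 TPM in those of Rbbp4 OE and 0.72 and 0 TPM in those of Rbbp7 OE. Both Rbbp7 OE libraries lay far below the other 4. The log2 fold change in Rbbp7 OE against control was -2.25 ± 0.33 (SE; adjusted p = 0.0689, limma), which misses 0.05. It was 2.01 ± 0.33 (SE; adjusted p = 0.0950, limma) for Rbbp4 OE against Rbbp7 OE. When only protein-coding genes were tested, the adjusted p against control was 0.0343.

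Without Hist1h2af, the other 11 genes of the group summed to 41.34 and 32.63 TPM in the control, 41.02 and 36.39 TPM with Rbbp4 OE and 29.47 and 32.50 TPM with Rbbp7 OE. The log2 difference between Rbbp7 OE and control was then -0.26, and control replicate 2 and Rbbp7 OE replicate 2 all but met. Hist1h2an and Hist1h2ah, the next highest members after Hist1h2ap, ranged from 2.12 to 12.38 TPM and from 3.61 to 10.81 TPM. For Hist1h2an the 2 controls, at 10.68 and 2.12 TPM, spanned most of that range.

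Over all 39 tested members, no gene passed the study's thresholds, which are an adjusted p under 0.01 together with a change of more than 2 fold, in Rbbp4 OE against control (limma), where 0.516% of all 14156 genes tested did. None passed an adjusted p under 0.05 without a fold minimum, against 11.4% of all genes. At an unadjusted p under 0.05 there was 1 member, Hist1h4n, which is 2.56% of the members against 29.6% of all genes. Both Rbbp4 OE libraries lay above both controls in 6 members (15.4%, against 20.8% of all genes) and below them in 7 (17.9%, against 37.1%). The median log2 fold change was 0.08 over the members and -0.08 over all genes, and 21 members were higher and 18 lower. The median of the members was -0.10 without control replicate 2 and -0.03 without Rbbp4 OE replicate 1. Without control replicate 1, Hist1h2bc (log2 fold change 0.59, adjusted p = 0.0433, limma) and Hist1h2bl (1.40, adjusted p = 0.0370, limma) passed 0.05.

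The members that were above both controls in Rbbp4 OE were Hist1h2bc, Hist1h2bk, Hist1h2bl, Hist1h3c, Hist1h4n and Hist2h2aa2. The whole transcript of Hist2h2aa2 is identical to a part of that of Hist2h2aa1, so its reads cannot be assigned. Added together, Hist2h2aa1 and Hist2h2aa2 had 4.70 and 5.46 TPM in the control and 3.09 and 5.47 TPM with Rbbp4 OE, which overlap. The fold change of Hist1h4n was 1.29 ± 0.40 (log2, SE; adjusted p = 0.0876, limma). The highest fold change was that of Hist1h4k at 1.29 ± 1.09 (log2, SE), and its controls at 3.41 and 0 TPM overlapped Rbbp4 OE at 3.13 and 5.42 TPM. The lowest were Hist1h2bb at -0.67 ± 0.64 and Hist1h2ad at -0.63 ± 0.65 (log2, SE). Both of these turned positive when a library was left out, Hist1h2bb without control replicate 1 (0.22) and Hist1h2ad without Rbbp4 OE replicate 2 (0.29).

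In Rbbp7 OE against control, again no member passed either threshold (limma), where 0.0353% of all genes passed the first and 0.487% the second. At an unadjusted p under 0.05 there were 8 members, 2 higher and 6 lower, which is 20.5% against 15.4% of all genes. Both Rbbp7 OE libraries lay above both controls in 5 members (12.8%, against 21.2% of all genes) and below them in 10 (25.6%, against 23.4%). The median log2 fold change was -0.06 over the members, with 16 higher and 23 lower, and -0.004 over all genes. Without Rbbp7 OE replicate 2 the median of the members was 0.14, and without control replicate 2 it was -0.23.

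The 8 members are named here after their values were seen, apart from those the rule for named genes gives. Hist1h4n was higher at 2.10 ± 0.40 (log2, SE; adjusted p = 0.106, limma). Hist1h2bk was higher at 0.52 ± 0.20 (log2, SE; adjusted p = 0.302, limma). Hist1h2af is given above, and Hist1h2ag, another near-identical H2A gene, was lower at -0.78 ± 0.29 (log2, SE; adjusted p = 0.282, limma). Hist1h1b was lower at -0.80 ± 0.23 (log2, SE; adjusted p = 0.200, limma). Hist3h2ba, an H2B gene of the small Hist3 cluster with a poly(A) signal, had 1.89 and 2.42 TPM in the control libraries, 1.68 and 0.79 TPM in those of Rbbp4 OE and 0.48 and 0.50 TPM in those of Rbbp7 OE, a difference of -1.08 ± 0.26 from the control (log2, SE; adjusted p = 0.164, limma).

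The remaining pair of the 8 were H4 genes of the near-identical H4 group. Both matched the transcript of Hist1h4k at 95.5%, and Hist1h4b also matched that of Hist1h4f at 95.8%, so that reads may be shared. Hist1h4b, whose stem-loop has a form shared with Hist1h4j only, had 2.01 and 2.66 TPM in the control, 1.98 and 3.72 TPM with Rbbp4 OE and 0.70 and 0 TPM with Rbbp7 OE. Hist1h4h had 3.34 and 3.79 TPM, 2.09 and 2.33 TPM, and 1.3 and 0.45 TPM in the same order. The groups did not overlap between Rbbp7 OE and control for either gene, and for Hist1h4h Rbbp4 OE lay between them. The log2 fold changes in Rbbp7 OE were -1.35 ± 0.35 for Hist1h4b (SE; adjusted p = 0.183, limma) and -1.32 ± 0.26 for Hist1h4h (SE; adjusted p = 0.111, limma). Hist1h4n lay on the other side of the control, so the H4 genes did not share a direction. Hist1h3h had the second highest fold change, 1.11 ± 0.85 (log2, SE), which turned to -0.10 without control replicate 1, the library in which it was listed at 0.

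Between Rbbp4 OE and Rbbp7 OE, no member passed either threshold (limma), where 0.0494% and 0.304% of all genes did. At an unadjusted p under 0.05 there were 7 members, 5 higher in Rbbp4 OE and 2 lower, which is 17.9% against 19.0% of all genes. Both Rbbp4 OE libraries lay above both Rbbp7 OE libraries in 11 members (28.2%, against 16.1% of all genes) and below them in 7 (17.9%, against 38.6%). The median log2 fold change was 0.21 over the members, with 26 higher and 13 lower, and -0.08 over all genes. Without Rbbp7 OE replicate 2, the library with the lowest histone total, the median of the members was -0.04.

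Of the 7 members, 5 were H4 genes. Hist1h4b (1.52 ± 0.35), Hist1h4f (1.48 ± 0.53), Hist1h4a (1.09 ± 0.39) and Hist1h4h (0.81 ± 0.26) were higher in Rbbp4 OE (log2, SE; adjusted p = 0.127 to 0.221, limma). All belong to the near-identical H4 group, and Hist1h4f matched Hist1h4a at 97.2%, so that reads may be shared. Hist1h4f had 1.38 and 4.68 TPM with Rbbp4 OE and 0.73 and 0 TPM with Rbbp7 OE. Hist1h4a had 0.93 and 3.07 TPM, and 0.31 and 0.32 TPM. For both genes Rbbp4 OE replicate 2 was well above replicate 1. Hist1h4i, the highest H4 gene and one with a poly(A) signal, was lower at -0.82 ± 0.32 (log2, SE; adjusted p = 0.242, limma). It had 5.28 and 3.44 TPM in the control libraries, 4.85 and 2.95 TPM in those of Rbbp4 OE and 9.69 and 5.72 TPM in those of Rbbp7 OE. Its Rbbp7 OE libraries were the highest 2 of the 6. The lowest fold change was that of Hist1h2ak at -0.87 ± 0.47 (log2, SE), an H2A gene listed at 0 in 2 libraries. The remaining member of the 7 was the H3 gene Hist1h3g, lower at -0.41 ± 0.15 (log2, SE; adjusted p = 0.228, limma).

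**Figure D5:**
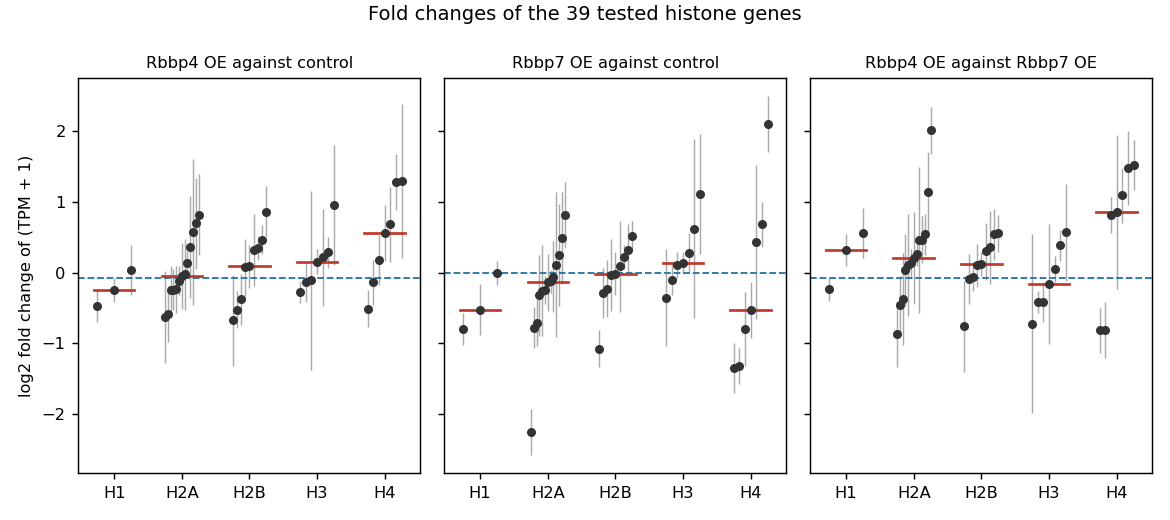
Log2 fold changes of the 39 tested histone genes on the scale of log2(TPM + 1) in the 3 comparisons, by class, with error bars of 1 SE, a red line at the median of each class and a dashed blue line at the median of all 14156 genes. The H4 genes spread widely, from -1.35 (Hist1h4b) to 2.10 (Hist1h4n) in Rbbp7 OE against control. The comparisons share libraries.

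H2A and H2B genes often stand head to head and share the stretch between their starts. There were 12 such pairs with at most 500 bases between the annotated 5' ends, and every one joined an H2A with an H2B gene. Both genes passed the filter on low values in only 5 of them. The pair Hist1h2ah and Hist1h2bk, 301 bases apart, held the most RNA of those in which both passed. Hist1h2ah had 10.81 and 6.15 TPM in the control, 5.40 and 8.43 TPM with Rbbp4 OE and 3.61 and 5.86 TPM with Rbbp7 OE. Hist1h2bk had 6.80 and 6.62 TPM, 7.92 and 11.75 TPM, and 11.31 and 8.97 TPM in the same order. In Rbbp7 OE both libraries of Hist1h2ah lay below the control and both of Hist1h2bk above it. The ratio of Hist1h2bk to Hist1h2ah was 0.629 and 1.08 in the control, 1.47 and 1.39 with Rbbp4 OE and 3.13 and 1.53 with Rbbp7 OE. Hist1h2ah matched 12 other genes and Hist1h2bk 2, so the ratio may depend on how reads were divided among the near-copies.

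In Rbbp7 OE against control neither gene passed the test (adjusted p = 0.379 for Hist1h2ah and 0.302 for Hist1h2bk, limma). In 3 of the other 4 pairs both genes had log2 fold changes of the same sign in Rbbp7 OE (± SE). These were -0.06 ± 0.50 for Hist1h2ae and -0.01 ± 0.30 for Hist1h2bg, and -0.78 ± 0.29 for Hist1h2ag and -0.28 ± 0.35 for Hist1h2bj. Hist1h2ai and Hist1h2bl were at 0.11 ± 1.03 and 0.32 ± 0.37. Hist1h2an and Hist1h2bp were at 0.25 ± 0.72 and -0.04 ± 0.51. All but that of Hist1h2ag were smaller than their SE, so the signs of these pairs are not settled.

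Part of the stretch between the GENCODE M21 starts of Hist1h2ah and Hist1h2bk is printed because this pair held the most RNA. It is the 250 bases before the RefSeq start of Hist1h2bk, which RefSeq calls H2bc12 (GRCm38.p6, chr13:22035571-22035820, plus strand). Capitals mark the letters CCAAT, the letters TATAA and the letters ATTTGCAT on either strand.
Hist1h2bk: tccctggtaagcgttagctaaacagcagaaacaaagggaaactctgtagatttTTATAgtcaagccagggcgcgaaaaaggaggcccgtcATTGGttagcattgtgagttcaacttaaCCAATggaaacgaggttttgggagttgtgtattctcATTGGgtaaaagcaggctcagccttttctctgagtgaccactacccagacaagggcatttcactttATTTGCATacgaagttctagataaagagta

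It holds CCAAT 3 times, TATAA 1 time and ATTTGCAT 1 time, counting both strands. RefSeq places the start of Hist1h2ah inside the printed bases, so that this TATAA lies within the RefSeq transcript of Hist1h2ah. CCAAT is the core of the site of NF-Y, TATAA that of the TATA box, and ATTTGCAT is the octamer bound by POU factors, known as an element of H2B genes. RefSeq promoters, 250 bases before to 50 after a start, were matched for 61 of the 67 members. CCAAT was found in every matched H1, H2A, H2B and H3 promoter but in 3 of 12 H4 promoters, and in 37.4% of all 32817 promoters. TATAA was found in 78.7% of the members and 24.9% of all promoters. ATTTGCAT was found in 7 of 18 H2A and 6 of 16 H2B promoters and in no matched promoter of the other classes, against 1.74% of all promoters. AAACACA, the H1 box, was found in 4 of 5 H1 promoters, 2 of 18 H2A, 2 of 16 H2B and no H3 or H4 promoter, against 7.19% of all. The motifs were searched on both strands, and overlaps between motifs were allowed. H2A and H2B windows of 1 pair cover much the same bases, so their counts are not independent.

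Of 29 genes that act on histone genes and messages, 3 passed an adjusted p under 0.05 in Rbbp4 OE against control (10.3%, near the 11.4% of all genes), and none in the other comparisons (limma). At an unadjusted p under 0.05 there were 10 in Rbbp4 OE (34.5%, against 29.6% of all genes). In Rbbp7 OE there were 3 (10.3%, against 15.4%) and between the lines 7 (24.1%, against 19.0%). None of the 3 that passed the adjusted threshold was among the 8 genes for histone transcription. Npat, the coactivator of the histone clusters, had 7.26 and 10.17 TPM in the control libraries, 7.62 and 6.41 TPM in those of Rbbp4 OE and 9.73 and 9.21 TPM in those of Rbbp7 OE. Its partner Casp8ap2 ranged from 9.06 to 14.24 TPM and Hinfp, a regulator of H4 genes, from 7.96 to 10.57 TPM. Hinfp lay below both controls in all 4 overexpressing libraries, but neither line passed the test (adjusted p = 0.132 in Rbbp4 OE and 0.348 in Rbbp7 OE, limma).

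Of 12 genes for the processing of the stem-loop end, 1 passed 0.05 in Rbbp4 OE (8.33%, against 11.4% of all genes). Cstf2, a cleavage factor shared with ordinary polyadenylation, fell by 0.57 ± 0.09 on the log2 scale in Rbbp4 OE (SE; adjusted p = 0.0183, limma). It had 31.05 and 33.29 TPM in the control, 20.50 and 22.23 TPM with Rbbp4 OE and 29.00 and 27.32 TPM with Rbbp7 OE. Slbp had 112.45 and 127.91 TPM, 103.46 and 107.38 TPM, and 113.39 and 121.03 TPM in the same order. The U7 particle proteins Lsm10 and Lsm11 ranged from 25.92 to 34.27 TPM and from 4.89 to 6.10 TPM. Zfp473, a zinc finger protein of the same machinery, ranged from 10.52 to 15.18 TPM.

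Of 9 genes for the decay of histone messages, 2 passed 0.05, both in Rbbp4 OE against control (22.2%, against 11.4% of all genes). Eri1, the nuclease that trims the stem-loop end, fell by 0.81 ± 0.16 on the log2 scale (SE; adjusted p = 0.0293, limma). Upf1, a helicase of histone message decay and nonsense-mediated decay, rose by 0.39 ± 0.07 (log2, SE; adjusted p = 0.0255, limma). The differences of both genes between Rbbp4 OE and Rbbp7 OE did not pass (adjusted p = 0.158 for Eri1 and 0.814 for Upf1, limma).

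Among 15 genes of ordinary polyadenylation, which bears on what a poly(A) library catches, 4 passed 0.05 in Rbbp4 OE (26.7%, against 11.4% of all genes). Cpsf6, Cstf3 and Nudt21 fell, by 0.79, 0.37 and 0.33 on the log2 scale, and Pabpn1 rose by 0.30. None passed in Rbbp7 OE. The part of these changes in the histone levels was not tested.

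Since the genes follow S phase, 20 genes of DNA replication were set beside them. In Rbbp4 OE 17 of the 20 were lower than the control, as were 8352 of all 14156 genes tested. Of the 17, 7 passed 0.05 (Ccne2, Cdt1, Gins2, Mcm4, Mcm5, Mcm6 and Rrm2). That is 35% of the 20 against 11.4% of all genes. The median log2 fold change was -0.19 against -0.08 over all genes. In Rbbp7 OE 17 were lower, as were 7172 of all genes, and 1 passed, Gins2 (-0.75, adjusted p = 0.0289, limma). That is 5% of the 20 against 0.487% of all genes. The median was -0.12 against -0.004. Ccne2, cyclin E2, fell furthest in Rbbp4 OE, from 8.18 and 12 TPM to 1.49 and 1.62 TPM. The S-phase genes summed to 3637 and 3777 TPM in the control libraries, 3215 and 3200 TPM in those of Rbbp4 OE and 3410 and 3485 TPM in those of Rbbp7 OE, while the histone totals of the groups overlapped. Their part in the histone values was not tested.

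The replacement histones offered a comparison with mostly tailed messages of the same protein families. Of 11 genes, 3 passed 0.05 in Rbbp4 OE (27.3%, against 11.4% of all genes) and none in Rbbp7 OE. H2afx, which codes for H2A.X, rose by 0.23 and H1fx, a linker histone, by 0.54 on the log2 scale, and H2afz fell by 0.30. Their summed level was 4685 ± 82.4 TPM in the control, 4410 ± 92.2 TPM with Rbbp4 OE and 4531 ± 120 TPM with Rbbp7 OE (SD, n = 2 each). For the Hist genes it was 125 ± 15.7, 137 ± 5.78 and 120 ± 18.7 TPM. Relative to the mean, the SD was 1.76%, 2.09% and 2.65% for the replacement histones and 12.6%, 4.23% and 15.5% for the Hist genes.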

How the data were processed

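Poly(A) RNA of 6 libraries of mouse embryonic stem cells was sequenced. After trimming with Trim_galore, the authors used STAR on mm10 with a later GENCODE release, then RSEM, and deposited TPM per gene. TPM keeps no depth, so no counting interval or floor is given, and a 0 may be a failed estimate of a short or duplicated transcript.

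Gene identifiers were matched to GENCODE M21 (55141 of 55401). The study tested counts, whereas TPM was tested here with limma-trend (limma 3.58.1, R 4.3.3) on log2(TPM + 1), which understates changes of low genes. Genes with a mean of at least 0.5 TPM were tested with all 3 groups in 1 fit without covariates (3 residual and 3.10 prior degrees of freedom). Adjusted p-values are Benjamini-Hochberg over 14156 genes. Class sums were described without a test. Near-identical copies were found with blastn 2.17.0.

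The members and lists were chosen with earlier results of these data known. The text names members at an adjusted p under 0.05, the 3 highest of each class, every H1 gene, the 2 highest and 2 lowest fold changes per comparison, Rbbp4, Rbbp7, Slbp, Npat, Casp8ap2, Lsm10, Lsm11, Hinfp and Zfp473, and histone transcription, processing and decay genes at an adjusted p under 0.05. Other genes were named after their values were seen. Alternatives covered the pseudocount, filter, scaling, replicate block, 2-group fits, biotype, near-identical copies and single libraries.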

Additional observations from a re-analysis of the deposited data

Results flagged for a closer look

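Hist1h3g, an H3 gene at chr13:23535422-23535951, stood on opposite sides of the control in the overexpression lines. It had 3.48 and 3.86 TPM in the control, 2.88 and 2.83 TPM with Rbbp4 OE and 3.91 and 4.37 TPM with Rbbp7 OE, so both Rbbp4 OE libraries were below both controls and both Rbbp7 OE libraries above them. The direct comparison of Rbbp4 OE with Rbbp7 OE gave a log2 fold change of -0.41 ± 0.15 (SE; unadjusted p = 0.0334, adjusted p = 0.228, limma) and did not pass. No other tested member lay on opposite sides of the control in this way, and the share of all genes that did was not counted.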

How the results depend on the processing

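No histone gene passed an adjusted p under 0.01 with a fold over 2 under any alternative run. Past an adjusted p of 0.05 there were 0 to 2 genes when 1 library was left out of Rbbp4 OE against control (Hist1h2bc and Hist1h2bl, without control replicate 1), and testing protein-coding genes only gave 1 in Rbbp7 OE (Hist1h2af). The cause was not tested. Directions of single members were unstable. When a library of the groups compared was left out, 28 to 34 of the 39 tested members kept their direction in Rbbp4 OE against control (fewest without control replicate 1), 29 to 33 in Rbbp7 OE against control (fewest without control replicate 2) and 30 to 36 between the lines (fewest without Rbbp7 OE replicate 2). Among the members whose fold changes were extreme or had an unadjusted p under 0.05, it turned for Hist1h2bb in Rbbp4 OE (-1.56 to 0.22), Hist1h2ad in Rbbp4 OE (-1.55 to 0.29) and Hist1h3h in Rbbp7 OE (-0.10 to 2.32). Of the summed levels, the H1 difference without Hist1h1c was -1.05 for Rbbp7 OE against control and 0.86 for Rbbp4 OE against Rbbp7 OE. H2A genes whose own transcript matched no other gene, which still include Hist1h2ac, Hist1h2ad and Hist1h2ae of the near-identical group because shorter genes match them, differed by -0.18 in Rbbp4 OE and -0.11 in Rbbp7 OE against control and by -0.072 between the lines. Without Hist1h2af, an alternative chosen after seeing the data, the H2A difference was -0.20 in Rbbp7 OE and 0.23 between the lines. In all, 7 of the values of summed levels moved by more than the spread between replicates and 119 did not.

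Deviations from the group means correlated at -0.03, 0.03 and -0.03 between groups, so libraries of the same replicate number shared little deviation over the genes. These correlations cannot show whether such libraries were prepared together. A fit with the replicate number as a block gave 0 histone genes at either threshold in every comparison. With 2 libraries a group, no known depth and near-identical genes, changes of single histone genes smaller than the spread between replicates could not be detected. Some changes of several SE also missed both thresholds when all genes were tested. In Rbbp7 OE against control, Hist1h2af was at -2.25 ± 0.33 (log2, SE, adjusted p = 0.0689, limma). Hist1h4n was at 2.10 ± 0.40 in the same comparison (log2, SE, adjusted p = 0.106, limma). The lack of passing members therefore does not exclude changes of this size.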
